A study of Homo sapiens with 6 samples.

Results

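Neuromedin B, its relative gastrin-releasing peptide, their receptors and the standard neuroendocrine markers were followed in prostate cancer cells made to overexpress miR-338-5p or miR-421. The genes were NMB, NMBR, GRP, GRPR, CHGA, CHGB, SYP, NCAM1 and INSM1, 9 of the 43317 gene and transcript names on the array, read by 11 of its 58201 probes. They were chosen because NMB had a low ratio under miR-421 in these arrays, so the values of these genes under miR-421 chose them and are given below as a description, with no test. The lines derived from 22RV1, a human prostate carcinoma line that the labels call SPINK1 positive. All lines compared were stable lentiviral lines kept in puromycin. The miRNA lines carried pLemiR-338-5p or pLemiR-421, and the control carried pLemiR-RFP, a red fluorescent protein vector. Each of the 6 two-colour arrays held control RNA in Cy3 and RNA of a miRNA line in Cy5, with no dye swap, so a dye bias of a probe cannot be told apart from an effect in either comparison with control. The miR-338-5p group had replicates 1, 2 and 3, and the miR-421 group had replicates 1 and 2 and a sample named a pool. The labels do not say what was pooled, or whether replicates were separate cultures or clones, so p-values measure only the spread between these samples. The expression level of either miRNA was not analysed here.

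Bombesin-like peptides are short amidated peptides made from larger precursors. Neuromedin B acts mainly on the receptor NMBR and gastrin-releasing peptide on GRPR, and both receptors couple to Gq proteins, phospholipase C beta and calcium release from internal stores. Neuroendocrine cells pack such peptides into dense-core granules together with chromogranins. In the prostate, rare neuroendocrine cells lie among luminal and basal cells, and prostate carcinomas can gain neuroendocrine markers as they progress under androgen deprivation.

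Both miRNAs are shown first because they define the lines compared. A miRNA recognises its targets mainly through its seed, bases 2 to 8 from the 5′ end, set in capitals here (RefSeq, GRCh38.p14). The seeds differ, so these miRNAs do not belong to 1 seed family. The mature hsa-miR-338-5p is encoded at chr17:81125923-81125944 and hsa-miR-421 at chrX:74218392-74218414, both on the minus strand.
hsa-miR-338-5p: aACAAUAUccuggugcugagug
hsa-miR-421: aUCAACAGacauuaauugggcgc
The complement of the miR-421 seed, CTGTTGA, was in 0 of the 11 probe sequences of these genes and in 0.558% of all probes. The complement of the miR-338-5p seed, ATATTGT, was in 0 of the 11 and in 0.478% of all probes. A probe covers only a short stretch of a transcript, so this says nothing of sites elsewhere in it.

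In Cy3, the control, 47.3% to 47.9% of gene spots were well above background on the miR-338-5p arrays and 44.3% to 44.4% on the miR-421 arrays, without overlap. The part of this gap in the results was not tested. In Cy5 the share was 41.9% on miR-421 replicate 1 and 46.8% to 48.3% on the other arrays. Outlier spots numbered 117 to 436 per array, and 0 gene spots were saturated on any array. Luminal prostate markers were above background in both dyes (11 of 11), and basal epithelial markers in neither (0 of 3). Of the neuroendocrine markers, 3 of 5 were above background in both dyes. Of the fibroblast markers, COL1A2 and COL3A1 were at background in both dyes. The summed signal of the 6 fibroblast markers was 467 to 489 in Cy3, 369 to 811 in Cy5 of miR-338-5p and 695 to 1500 in Cy5 of miR-421. The part of other cells in the results was not tested. In bulk samples, fewer cells of a type and less RNA per cell cannot be told apart.

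The receptors and several markers gave no readable signal. NMBR (chromosome 6), GRP (chromosome 18), GRPR (chromosome X), NCAM1 (chromosome 11, 3 probes), a cell adhesion molecule also known as CD56, and INSM1 (chromosome 20), a zinc-finger transcription factor of neuroendocrine cells, did not rise well above background on any array in Cy3 or Cy5 (0 of 6). Their log2 ratios ran from -0.10 for NMBR on miR-421 replicate 2 to 0.10 for an NCAM1 probe on the miR-421 pool. Both receptors of the bombesin-like peptides were thus below what the array could measure in control and miRNA lines alike, and no fold can be given for them. The 4 probes that were kept for testing, having a Cy3 or Cy5 signal well above background on 3 or more arrays, were those of NMB, CHGA, CHGB and SYP.

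**Figure D1:**
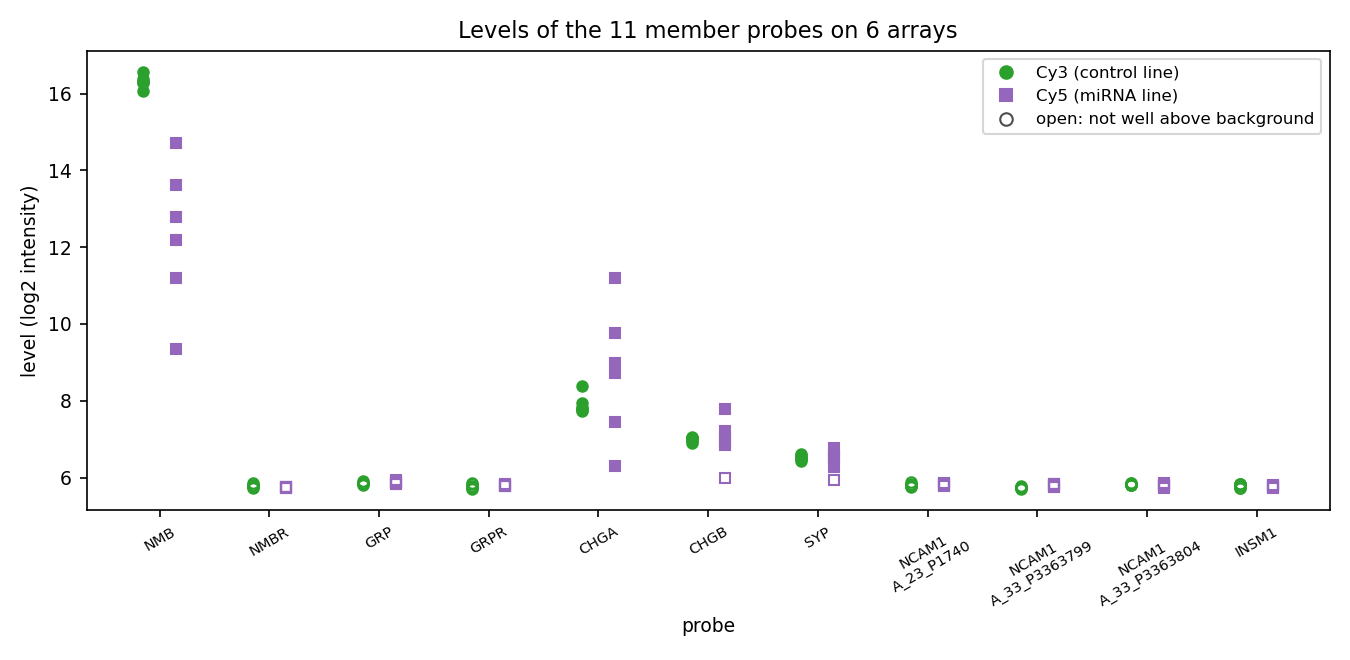
Level of each of the 11 probes (log2 intensity after background correction and normalization) in Cy3, the control line (circles), and Cy5, the miRNA lines (squares), with 1 point per array and open symbols where the spot was not well above background. NMB was above background in both dyes on 6 of 6 arrays, while NMBR, GRP, GRPR, NCAM1 and INSM1 were not above it on any; heights of different probes cannot be compared.

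NMB, the precursor of neuromedin B, was lower in the miRNA line than in its control on 6 of 6 arrays. Its probe (A_23_P88522, NM_021077) lies on chromosome 15, 85198402 to 85198461, minus strand, hg19, and exon and UTR annotation was not used here. The log2 ratio of Cy5 over Cy3 under miR-421 was -4.14 for the pool, -3.49 for replicate 1 and -7.21 for replicate 2. The miR-421 mean was -4.95 ± 1.99 (SD, n = 3), a 30.9-fold lower signal, and -3.81 without replicate 2. On miR-338-5p replicates 1, 2 and 3 the NMB log2 ratio was -2.68, -5.20 and -1.36.
Replicate 2 was the lowest array of its group under either miRNA, and the groups overlapped, since miR-338-5p replicate 2 lay below the miR-421 pool and replicate 1. As a share of control, the NMB signal in the miR-421 line was 5.67%, 8.91% and 0.673% on the pool and replicates 1 and 2. In the miR-338-5p line it was 15.6%, 2.73% and 39% on replicates 1, 2 and 3. NMB thus kept from 0.673% to 39% of its control signal, depending on the array. Among the kept probes of each array, NMB had the lowest ratio of all (rank 1) on miR-338-5p replicate 2 and on miR-421 replicate 2. Its rank from the lowest was 8 on miR-338-5p replicate 1, 8 on the miR-421 pool, 10 on miR-421 replicate 1 and 195 on miR-338-5p replicate 3.

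NMB was tested on the miR-338-5p arrays only, since the choice of the genes named miR-421. This test is not fully independent of that choice, because earlier results of both groups were known and both used control RNA in Cy3. The mean there was -3.08 ± 1.95 (SD, n = 3), with a 95% interval from -5.34 to -0.82. It did not pass the threshold of 0.05 (limma p 0.0157, adjusted p 0.0955 over all probes), and neither did any other of these genes, so 0 of the 4 kept probes passed, against 8.98% of all probes tested under miR-338-5p. NMB was the 1 probe of the 4 with an unadjusted limma p under 0.05, against 7478 of all 27497 probes tested. Without replicate 2 the NMB mean was -2.02 (adjusted p 0.306), and over all 17 alternatives limma's adjusted p ran from 0.0609 to 0.306.

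The NMB level varied more in Cy5, the miRNA lines, than in Cy3, the control. If 1 control extract served all arrays, the Cy3 levels leave out the spread between extracts. The control (Cy3) level was 16.30, 16.39 and 16.06 on the miR-338-5p arrays and 16.33, 16.27 and 16.57 on the miR-421 arrays (log2 intensity), a range of 0.5 and an SD of 0.16 over the 6. The Cy5 level was 13.62, 11.20 and 14.70 in miR-338-5p replicates 1, 2 and 3, and 12.19, 12.78 and 9.35 in the miR-421 pool and replicates 1 and 2. The Cy5 levels therefore ranged over 3.5 on the log2 scale within miR-338-5p and over 3.43 within miR-421. The lowest Cy5 spot was still well above background, with a mean brightness of 643.9 over a local background of 16.

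**Figure D2:**
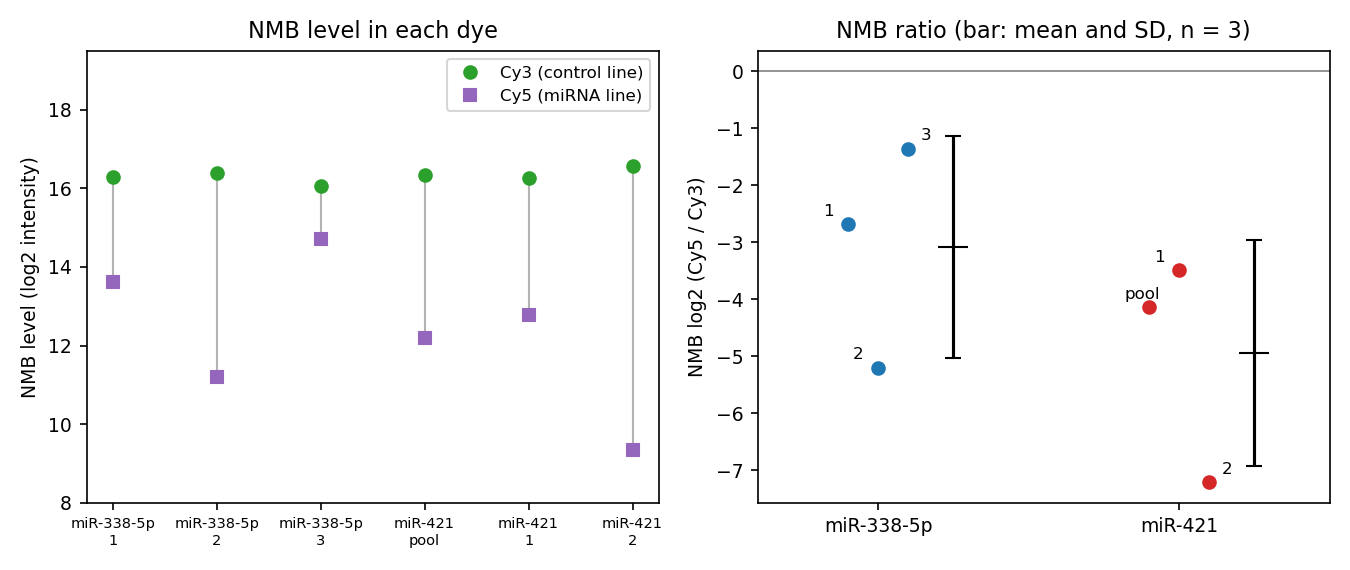
NMB on each array. Left, level (log2 intensity) in Cy3, the control line, and Cy5, the miRNA line; right, log2 ratio of Cy5 over Cy3 by group with replicate names and, beside the points, the mean and SD (n = 3). The Cy3 levels stay within 0.5 while the Cy5 levels run from 9.35 to 14.70, and the groups overlap.

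The genes whose 6 log2 ratios were closest in value to those of NMB, among 21693 genes ranked by root mean square distance, still lay far from it. This distance does not ask for the same order of arrays. The nearest was CLDN11, a tight-junction protein, at 1.87, followed by ASS1, the argininosuccinate synthase, at 1.92. The transcript ENST00000526512 (1.99), PCP4L1 (2.15) and AKR1C3, a steroid-converting reductase (2.26), came next. CLDN11 had log2 ratios of -1.86, -3.30 and -4.14 under miR-338-5p replicates 1, 2 and 3, and -4.27, -3.84 and -4.24 on the miR-421 pool and replicates 1 and 2. ASS1 was between -3.85 and -3.33 on all arrays. These 5 genes were low on all 6 arrays, which follows from ranking genes by closeness to NMB and is not a separate result. The largest departure from control of these 5 under miR-421 was the CLDN11 value of -4.27, on the pool. On miR-421 replicate 2 NMB, at -7.21, had the lowest ratio of all kept probes, so no gene could match it there.

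Of the granule and vesicle markers, CHGA differed most from control under miR-421 and went the other way from NMB. CHGA encodes chromogranin A, the acidic granule protein used as a tissue and serum marker of neuroendocrine cells, and its probe (A_33_P3293164, NM_001275) lies on chromosome 14, 93401545 to 93401604, hg19. Its log2 ratio was 1.22 for the miR-421 pool, 1.82 for replicate 1 and 2.82 for replicate 2, with a mean of 1.95 ± 0.81 (SD, n = 3) or 3.87-fold. On miR-338-5p replicates 1, 2 and 3 the CHGA log2 ratio was -0.37, -1.42 and 0.92. All 3 miR-421 arrays lay above all 3 miR-338-5p arrays for this gene, which is given as a description with no test. The share of all genes with such a separation was not counted. The miR-338-5p mean was -0.29 ± 1.17 (SD, n = 3; 95% interval -1.45 to 0.87; limma adjusted p 0.753), and without replicate 2 it was 0.28. The interval spans 0, so the miR-338-5p arrays do not settle a direction.
Here too the level varied more in Cy5 than in Cy3, with the same limit on the control. The CHGA Cy3 level ranged over 0.65 on the 6 arrays, while Cy5 ran from 6.31 on miR-338-5p replicate 2 to 11.19 on miR-421 replicate 2. On miR-421 replicate 2, the array with the least NMB, CHGA was highest. On miR-338-5p replicate 2, where NMB was lowest in its group, CHGA was lowest as well, so low NMB did not go with high CHGA on every array.

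The start region of CHGA is shown because a palindrome known as the cAMP response element sits in it, a classical feature of this promoter. The 30 bases shown lie at chr14:92923085-92923114, plus strand (RefSeq, GRCh38.p14). In capitals within them is TGACGTCA, 54 to 47 bases before the start of the gene.
CHGA: ggcggcaccgcTGACGTCAtttccggggtc
The 250 bases before the start were searched on both strands in the promoter table, which matched 6 of these genes (NMB, NMBR, GRP, GRPR, CHGA and SYP). TGACGTCA was in CHGA alone of the 6, and in 1.65% of 35116 promoters. The E-box CAGCTG, which does not overlap that motif, was in NMBR alone of the 6 and in 14% of all promoters. Such a match describes the letters and shows no binding, and the arrays do not measure a factor there.

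CHGB, chromogranin B, a second granule protein of the same family, stayed near control on most arrays. Its probe (A_23_P57155, NM_001819) lies on chromosome 20, 5904307 to 5904366, hg19. The log2 ratio of CHGB was 0.20, -0.97 and -0.20 on miR-338-5p replicates 1, 2 and 3, and -0.12, 0.14 and 0.74 on the miR-421 pool and replicates 1 and 2. The miR-338-5p mean was -0.32 ± 0.60 (SD, n = 3; 95% interval -0.93 to 0.29; limma adjusted p 0.478), and it became 0 without replicate 2. The miR-421 mean was 0.25 ± 0.44 (SD, n = 3), and 0.01 without miR-421 replicate 2, so a single array carried each of these means.

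SYP, synaptophysin, a membrane protein of small synaptic-like vesicles, was closer still to control. Its probe (A_23_P136936, NM_003179) lies on chromosome X, 49044557 to 49044616, minus strand, hg19. The log2 ratio of SYP was 0.05, -0.50 and -0.01 on miR-338-5p replicates 1, 2 and 3, and -0.27, -0.02 and 0.17 on the miR-421 pool and replicates 1 and 2. The miR-338-5p mean was -0.15 ± 0.30 (SD, n = 3; 95% interval -0.47 to 0.17; limma adjusted p 0.519), and 0.02 without replicate 2. The miR-421 mean was -0.04 ± 0.22 (SD, n = 3), and the groups overlapped.

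CHGA, CHGB and SYP shared their lowest array, miR-338-5p replicate 2. On that array CHGB and SYP were not well above background in Cy5, though they were in Cy3. Both are dim, and the offset of 50 added before the log pulls dim ratios toward 0. The ratio of the image software, which has no such offset, was -3.39 for CHGB and -2.43 for SYP on that array, against -0.97 and -0.50. For CHGA it was -2.71 there, and 1.51, 2.48 and 3.09 on the miR-421 arrays. The 2 scales gave the same order of the miR-421 arrays for CHGA. How low the granule markers were on miR-338-5p replicate 2 depends on the scale, and only the direction is read from it here.

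**Figure D3:**
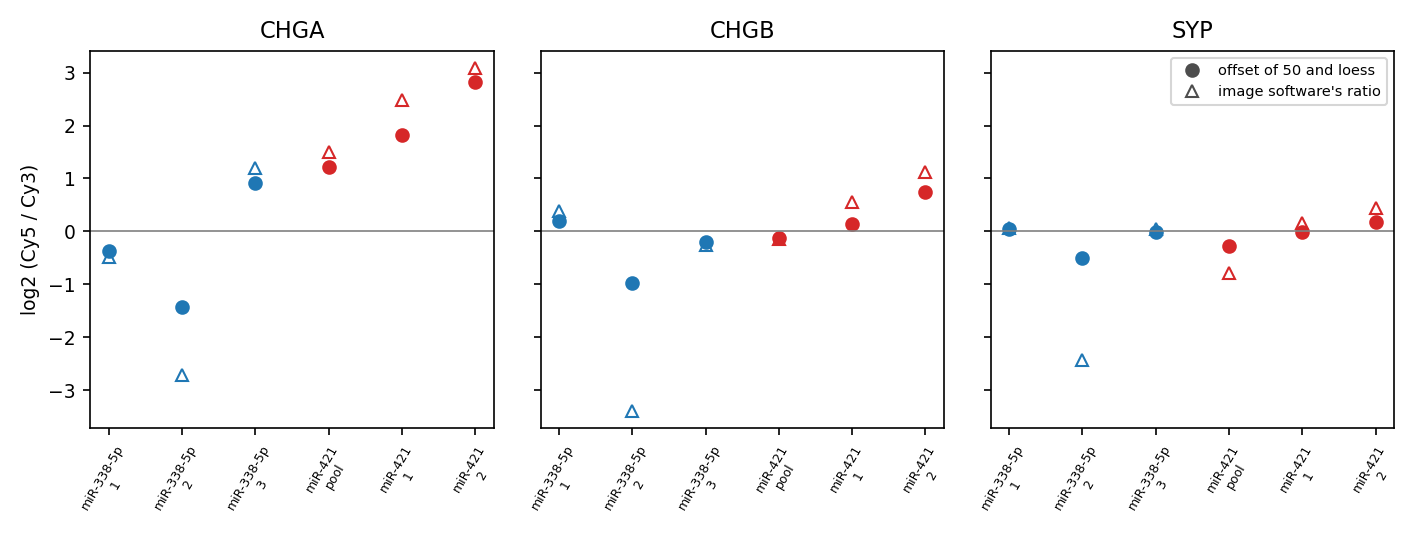
Log2 ratio of Cy5 over Cy3 for CHGA, CHGB and SYP on each array, as processed here (filled circles) and as given by the image software (open triangles), with miR-338-5p arrays in blue and miR-421 arrays in red. The 3 genes were lowest on miR-338-5p replicate 2 and highest on miR-421 replicate 2, and on the former the image software gave -2.71, -3.39 and -2.43, each below the value as processed here.

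The other genes of the pathway were read from 4 lists holding 47 genes, of which 31 had a probe kept for testing. Under miR-338-5p, 6 of the 31 passed the threshold, 1 higher and 5 lower, where 3.78% of all probes were called higher and 5.2% lower. Under miR-421, 8 of the 31 passed, 3 higher and 5 lower, where 21.6% of all probes were called, 9.17% higher and 12.5% lower. The median log2 ratio of the 31 was -0.17 in the miR-338-5p line and 0.02 in the miR-421 line, against 0 and 0.01 over all genes. The miR-338-5p count changed with single arrays. It was 1, 0 and 1 without miR-338-5p replicates 1, 2 and 3, and 3 when the pool or replicate 2 of miR-421 was left out, and the all-probe count behind 8.98% fell to between 401 and 1155 without 1 of these arrays. The miR-421 count of 8 was 1 without miR-421 replicate 2, when 628 of all probes were called.

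In the list of receptors and their signal, BRS3, the orphan receptor of the bombesin family, and ITPR1 were among the 2 of 11 genes not kept. PLCB1, a phospholipase C beta that acts downstream of Gq, was lower under both miRNAs. It fell by 0.73 ± 0.34 in the miR-338-5p line and by 1.01 ± 0.18 under miR-421 (log2, SD, n = 3 each; limma adjusted p 0.0317 and 0.00845). PLCB1 was lower on 3 of 3 arrays of each group. A second PLCB1 probe passed under both (-0.57 and -0.75), and another did not (0.15 and -0.09), so its probes disagree. The miR-338-5p call of PLCB1 was lost without 5 of the 6 arrays, all but miR-421 replicate 1, and the miR-421 call without miR-421 replicate 2 (adjusted p 0.0615). Over the 17 alternatives PLCB1 ran from -1.06 to -0.38 under miR-338-5p, with the call lost in 11, and from -2.04 by the image software's ratio to -0.62 with the mean of its probes under miR-421, with the call lost in 1.
ITPR3, a calcium channel of the endoplasmic reticulum opened by inositol trisphosphate, was higher under miR-421, with log2 ratios of 0.77, 0.62 and 1.04 on the pool and replicates 1 and 2. It rose by 0.81 ± 0.21 (SD, n = 3; limma adjusted p 0.00634) and kept the call with any 1 array left out, but not with median centring (0.70, adjusted p 0.0559). Under miR-338-5p ITPR3 was 0.13 ± 0.12 (adjusted p 0.419). The G protein subunits that carry the receptor signal did not pass, GNAQ at -0.02 ± 0.15 and GNA11 at 0.25 ± 0.08 under miR-338-5p (adjusted p 0.932 and 0.0504). The list's median was -0.02 and 0.05 under miR-338-5p and miR-421.

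In the list of peptide processing and granule genes, 8 of 12 were kept, and the convertases PCSK1 and PCSK2, which cut prohormones, were not among them. PAM, the enzyme that amidates the C-terminus of peptides such as neuromedin B, was lower on 3 of 3 miR-338-5p arrays (-0.54, -0.62 and -0.87) and higher on 3 of 3 miR-421 arrays (0.50, 0.18 and 0.45 on the pool and replicates 1 and 2). It fell by 0.68 ± 0.17 in the miR-338-5p line and rose by 0.38 ± 0.17 in the miR-421 line (log2, SD, n = 3 each; limma adjusted p 0.0166 and 0.0382). The groups did not overlap, but the difference of -1.05 did not pass (limma adjusted p 0.072). How many of all genes had groups without overlap was not counted. A second PAM probe had the same signs without passing (-0.24 and 0.10). The miR-338-5p call of PAM was lost without any 1 of the miR-338-5p arrays, and the miR-421 call without miR-338-5p replicate 1 or 2, or without the pool or replicate 2 of miR-421. Over the 17 alternatives the PAM calls were lost in 6 and 10, with values from -0.89 to -0.46 and from 0.24 to 0.60.
PTPRN2, a phosphatase-like membrane protein of dense-core granules, had log2 ratios of 1.27, 0.87 and 1.83 on the miR-421 pool and replicates 1 and 2. It rose by 1.33 ± 0.48 (SD, n = 3; limma adjusted p 0.0282), and its second probe passed as well (1.11). The call of PTPRN2 was lost without any 1 of the miR-421 arrays and in 8 of 17 alternatives in all, with values from 1.07 to 2.0. PTPRN2 was high where CHGA was high and was lowest on miR-338-5p replicate 2 (-0.92), as CHGA was. VGF, a granule peptide precursor, was -0.83 ± 1.24 and 0.32 ± 0.64 under miR-338-5p and miR-421 (adjusted p 0.316 and 0.662), with -2.14 on miR-338-5p replicate 2. CPE, the carboxypeptidase that trims peptide ends, and PCSK1N, a convertase inhibitor, were 0.53 ± 0.19 and 0.73 ± 0.60 under miR-421 and missed the threshold (adjusted p 0.0505 and 0.0522). The list's median was -0.13 and 0.35 under miR-338-5p and miR-421.

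Of the 13 transcription and splicing genes, 8 were kept, and NEUROD1, a driver of neuroendocrine differentiation, was not among them. The calls in this list were all lower, 2 in the miR-338-5p line and 3 in the miR-421 line. ONECUT2, a transcription factor linked to neuroendocrine prostate cancer, had log2 ratios of -0.85, -1.12 and -1.61 on miR-338-5p replicates 1, 2 and 3, and -1.18, -1.22 and -1.40 on the miR-421 pool and replicates 1 and 2. It fell by 1.19 ± 0.39 and by 1.27 ± 0.12 (SD, n = 3 each; limma adjusted p 0.0128 and 0.00611). The ONECUT2 calls were lost only without miR-338-5p replicate 2 (0.0506) and without miR-421 replicate 2 (0.0516), respectively, among the arrays left out in turn, and under miR-338-5p also with the group's own 3 arrays (0.0571). The size of these falls depends on the scale, with ONECUT2 at -1.81 and -2.25 by the image software's ratio.
SOX2, a stem cell and lineage factor, fell by 0.33 ± 0.11 under miR-338-5p, just inside the threshold (limma adjusted p 0.04999), and lost the call without 5 of the 6 arrays, all but miR-421 replicate 1. It was at -1.81 by the image software's ratio and -1.51 with plain background subtraction, neither past the threshold (adjusted p 0.108 and 0.0865), and lost the call in 12 of 17 alternatives in all. POU3F2, the neural factor BRN2, fell by 0.65 ± 0.31 under miR-421 (adjusted p 0.0361), a call lost without miR-421 replicate 1 or 2 or miR-338-5p replicate 3 and in 6 of 17 alternatives in all. PEG10, a retrotransposon-derived gene, fell by 1.88 ± 0.81 under miR-421 (adjusted p 0.0341), a call lost without any 1 miR-421 array or miR-338-5p replicate 3 and in 6 of 17 alternatives in all. SRRM4, a splicing factor of neural exons, was -2.41 ± 1.33 and -1.93 ± 0.99 under miR-338-5p and miR-421, lower on 6 of 6 arrays, but missed the threshold (adjusted p 0.0506 and 0.0542). REST, the repressor of neuronal genes that SRRM4 acts on, was at 0.03 ± 0.04 and -0.03 ± 0.09 (adjusted p 0.802 and 0.738). The list's median was -0.41 and -0.43 under miR-338-5p and miR-421.

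Of the 11 neuronal and neuroendocrine markers, 6 were kept. ENO2, the neuron-specific enolase, had log2 ratios of -0.70, -0.74 and -0.90 on miR-338-5p replicates 1, 2 and 3, and -0.93, -0.42 and -0.25 on the miR-421 pool and replicates 1 and 2. It fell by 0.78 ± 0.10 and by 0.53 ± 0.35 (SD, n = 3 each; limma adjusted p 0.0252 and 0.0371). The miR-338-5p call of ENO2 was lost without any 1 miR-338-5p array and the miR-421 call without any 1 of the 6 arrays. Over the 17 alternatives these calls were lost in 6 and 11. DLL3, a Notch ligand of neuroendocrine tumours, rose by 0.42 ± 0.24 under miR-338-5p (adjusted p 0.0447), a call lost without any 1 of the 6 arrays and in 10 of 17 alternatives in all, with values from 0.29 to 0.88, and was 0.03 ± 0.02 under miR-421 (adjusted p 0.858). SNAP25, a vesicle fusion protein, was -0.98 ± 1.53 under miR-338-5p (adjusted p 0.33), with -2.72 on replicate 2. The peptides NTS, VIP and SST were not kept. The list's median was -0.59 and -0.50 under miR-338-5p and miR-421.

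**Figure D4:**
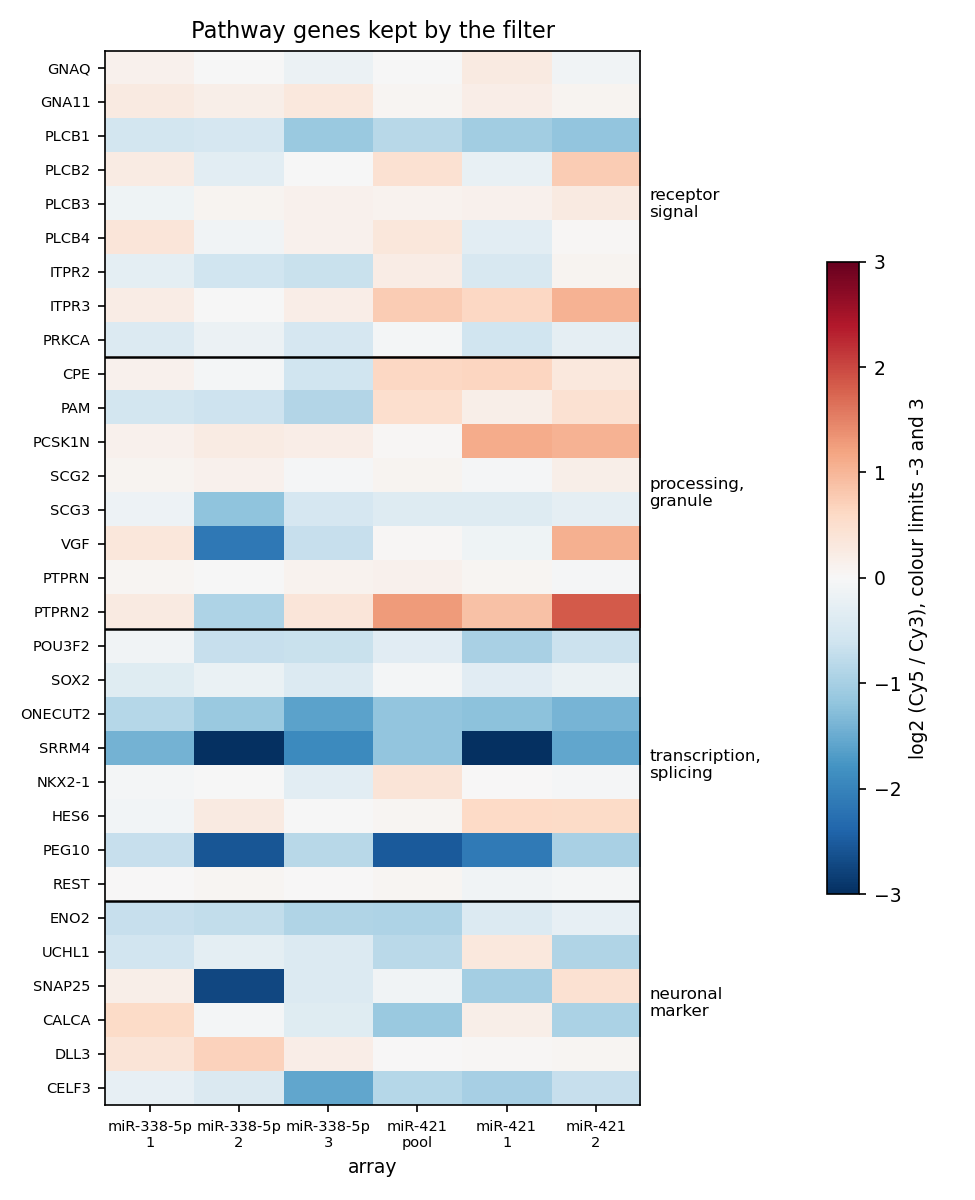
Log2 ratio of Cy5 over Cy3 for the 31 pathway genes kept for testing (rows, 1 probe each, grouped by list) on each of the 6 arrays (columns), with blue lower and red higher than control and colours limited at -3 and 3. ONECUT2, PLCB1 and ENO2 are blue on all arrays, PAM changes sign between the groups, and VGF, SNAP25 and SRRM4 are at their lowest on miR-338-5p replicate 2.

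By array, miR-338-5p replicate 2 held the lowest ratio of the 6 for 3 of the 4 kept genes of the set (CHGA, CHGB and SYP), for 3 of the 8 kept granule genes (SCG3, VGF and PTPRN2) and for 8 of the 31 pathway genes (25.8%). Over all genes that array was the lowest of the 6 for 19.4%. It did not stand alone for the pathway genes, since miR-338-5p replicate 3 was lowest for 8 of the 31 as well (25.8%, against 13.9% of all genes). NMB was not lowest there but on miR-421 replicate 2.

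In the direct comparison of the lines, the difference being miR-338-5p minus miR-421, none of the 31 pathway genes passed (0 of 31), where 0.0473% of all probes passed. An unadjusted limma p under 0.05 was found for 5 of the 31, against 3753 of all 27492 probes tested. The 2 brightest genes of each list were ITPR3 (-0.67) and GNA11 (0.13), VGF (-1.16) and PCSK1N (-0.54), HES6 (-0.36) and SRRM4 (-0.47), and ENO2 (-0.25) and SNAP25 (-0.76), with limma adjusted p from 0.14 for ITPR3 to 0.84 for SRRM4. Without miR-338-5p replicate 2 the SRRM4 and SNAP25 differences turned to 0.28 and 0.11. HES6 turned to 0.07 in the authors' deposited table and to 0.14 with the mean of its probes. For the genes of the set the differences of the group means, given with no test, were 1.87 for NMB, -2.24 for CHGA, -0.57 for CHGB and -0.11 for SYP. Both comparisons with control used control RNA in Cy3, so agreement between them is not independent.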

How the data were processed

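Per the file headers, the authors used Feature Extraction 11.5.1.1 on the scans. The deposited intensity values, per the file headers, were spot means and local background medians, not normalized. The deposited log10 ratio, per the file headers, followed background subtraction, detrending and dye normalization. The deposited table of log2 ratios per gene name has no stated normalization, and both served as alternatives. From the intensities, normexp with an offset of 50 and loess within arrays (control spots without weight) were applied. Outlier spots were left out and spots of 1 probe averaged. Of 58201 probes, 27497 had a Cy3 or Cy5 signal well above background on 3 or more of the 6 arrays and were kept. Levels per dye followed Aquantile scaling. R 4.3.3 and limma 3.58.1 fitted a mean per group over all 6 arrays (two-sided, Benjamini-Hochberg at 0.05). All arrays shared 1 slide and 1 scan date, so neither could be tested as a batch. If 1 control extract served all arrays, its own spread is left out.

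The members and lists were chosen with earlier results of these data known. Of the lists, every gene past the threshold was named, up to 4 per list and comparison, or else the 2 brightest. A gene was read by its brightest kept probe. All 11 member probes matched their symbol in the RefSeq table by accession (11 of 11). The fit was tested on simulated data. Alternatives covered the background, the normalization, the ratio's source, the filter, outlier spots, arrays left out, the variance model, the block and the probes per gene. The number of arrays limits the precision. Further values from the pathway lists and markers, such as those of VGF, CPE and SCG3, were named after being seen.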

Additional observations from a re-analysis of the deposited data

Results flagged for a closer look

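PAM, the peptide-amidating enzyme, was lower on all 3 miR-338-5p arrays and higher on all 3 miR-421 arrays. It was flagged for these opposite signs, and the share of all genes with such signs was not counted. The difference, miR-338-5p minus miR-421, was -1.05 on the log2 scale and did not pass limma's test of the difference (adjusted p 0.072; 0.0571 to 0.308 over its 16 alternatives). Its direction held in all 16, but with opposite signs on all arrays of the groups, leaving out an array could not have turned it.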

How the results depend on the processing

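Over the 17 alternatives NMB lay between -3.94 and -2.02 under miR-338-5p and between -5.68 and -3.81 under miR-421. NMB was lower than control on all 6 arrays, so leaving out an array could not turn its sign. The miR-421 values chose the gene, so their range is a description only. Under miR-338-5p NMB passed in none of the 17 (limma adjusted p 0.0609 to 0.306). No probe of the 9 genes passed under miR-338-5p in any alternative that was run (0 in 16). The unadjusted limma p of NMB under 0.05 (0.0157) belongs to the main fit, and unadjusted p-values of the alternatives are not given. Signs turned without miR-338-5p replicate 2 for CHGA (0.28), CHGB (0) and SYP (0.02) under miR-338-5p and for SRRM4 (0.28) and SNAP25 (0.11) in the difference, and also for HES6 in the difference with the authors' table (0.07) and the mean of probes (0.14). With 1 array left out these values ran from -0.89 to 0.28 for CHGA, -0.58 to 0 for CHGB, -0.25 to 0.02 for SYP, -1.03 to 0.28 for SRRM4 and -1.34 to 0.11 for SNAP25.

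Under miR-338-5p the pathway count (6) became 2 from the authors' table, 1 from the image software's ratio and 1 from the group's own 3 arrays. Under miR-421 the count (8) became 5 with median centring, 5 with the authors' table and 3 without the filter. With 1 array left out the counts ran from 0 to 9 and from 1 to 8. No pathway gene passed in the difference in any alternative (0 in 16). The all-probe count under miR-338-5p (2470, 57.9% lower) became 985 from the authors' table (44.3% lower), 1094 from the image software's ratio (45.9%), 1284 by median centring (82%), 1564 after plain subtraction (45.2%), 1590 unfiltered and 214 from the 3 arrays of the group, which leave fewer degrees of freedom. Under miR-421 (5946) it became 3876 with median centring. In the difference (13, 76.9% lower) it became 6 from the authors' table (33.3%), 2 from the image software's ratio (0%), 2 by median centring (50%), 10 after plain subtraction (40%), 46 with uncorrected signals (54.3%) and 89 under the trended and robust variance. With 1 array left out the all-probe counts ran from 401 to 3648, from 628 to 5504 and from 0 to 4. For the others the cause was not tested.

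Replicate numbers 1 and 2 occur in both groups. With the number as a random block the correlation was -0.297. No other number is shared by the groups, so this estimate cannot tell whether the numbers pair the samples. With this block the NMB means were -3.18 and -5.13, the pathway counts 8 and 10, and the all-probe count of the difference 0. Dim probes such as CHGB and SYP are limited by their signal over background.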
